A study of Mus musculus musculus x M. m. domesticus and Mus musculus domesticus and Mus musculus with 12 samples.

Results

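The genes described here were higher in the testis of every sterile hybrid male than in the testis of every fertile male. Of the 7000 genes measured, 71 (1.01%) had a lowest sterile value at least 0.2 log2 units above the highest of the 9 fertile values. From these 71 genes, 27 were left out. Of them, 13 had a cell type in the rows used of the study's supplementary expression table, which cover 1997 genes. From its sterility table, 14 of 45 genes were left out, 1 of which also had a cell type. The last was the spermatogonial translation factor gene Eif2s3y. The polycomb gene Scml2, which was to be left out as well, did not pass the threshold. The remaining 44 genes, 0.63% of those measured, are called members. They were chosen on these same 12 males, so their separation between sterile and fertile testis is given as a description, without a test.

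Males came from 4 crosses, 3 per cross, with the mother written first, and all were F1 animals aged 60 days. LEWES/EiJ mothers and WSB/EiJ fathers gave the DxD males, within Mus musculus domesticus, and PWK/PhJ mothers and CZECHII/EiJ fathers gave the MxM males, within Mus musculus musculus. The fertile hybrid DxM had a LEWES/EiJ mother and a PWK/PhJ father. The sterile hybrid MxD came from the reverse cross, with a PWK/PhJ mother and a LEWES/EiJ father. Both hybrids have the same autosomal makeup, one set from each of these parental strains, while the MxD males carry the PWK/PhJ X chromosome and the LEWES/EiJ Y chromosome and the DxM males the reverse. Neither within-subspecies cross is a parental strain of the hybrids, since WSB/EiJ and CZECHII/EiJ did not enter the hybrid crosses. Total RNA from whole testis was measured on 1 Affymetrix Mouse Genome 430 2.0 array per male, and all values are log2 expression of a gene as deposited. Nothing in the labels states whether males of a genotype were littermates.

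Spermatogenesis runs in the seminiferous tubules from mitotic spermatogonia through meiotic spermatocytes to postmeiotic spermatids, alongside somatic Sertoli cells and, between the tubules, Leydig cells, vessels and matrix. During meiosis the X and Y chromosomes of the male are transcriptionally silenced, and many X-linked genes stay repressed afterwards. A transcript measured in bulk tissue can therefore be higher because the cells that carry it make up more of the testis or because each cell holds more of it, and these cannot be told apart here.

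The deposited values identify genes by Ensembl ID, and no table used here pairs the members' IDs with symbols. Members are therefore described as a group, and single genes are given by ID. Cell type and chromosome come from the supplementary tables, of which 1997 genes were covered, from chromosomes 1 to 4 and part of 5. Only 2 members fall in those rows, both without a cell type, 1 on chromosome 3 and 1 on chromosome 4. For the other 42 members, cell type and chromosome were not analysed here, so a missing cell type does not mean that none was assigned. The leave-out by cell type could not be applied to these 42. Of the 71 genes past the threshold, 15 fall in the rows used, and 13 of those had a cell type. Among the genes left out, 12 of the 14 from the sterility table are X-linked, and of the 13 with a cell type 11 are mitotic, 1 postmeiotic and 1 somatic.

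Some arrays stood apart. Within MxM the median SD over all genes was 0.15, against 0.08 in DxD, 0.11 in DxM and 0.12 in MxD. MxM replicate 3 had a median deviation of 0.06 from the fertile medians over all genes, where the other fertile males were at 0. The replicate 1 males of the 4 genotypes deviated from their genotype means together, with correlations across genes of 0.57 to 0.76.

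Members exceeded the fertile males by modest amounts. The gap, the lowest MxD value minus the highest fertile value, ranged from 0.20 to 1.30 log2 units with a median of 0.27. Taken over genotype means, MxD was above the mean of the 3 fertile genotypes by 0.31 to 1.98 log2 units, with a median of 0.58, a 1.49-fold difference. In 21 of the 44 members it was at least 1.5-fold and in 3 at least 2-fold. These 3 are the dimmest members in fertile males, and all 3 are among the dimmest 25% of genes. The median distance was 0.67 from DxD, 0.54 from MxM and 0.47 from DxM. Since MxD is above all fertile values in members by the rule, the nearest genotype is the one with the highest mean. That was the fertile hybrid in 26 members (59.1%). Over all 7000 genes, where MxD can lie on either side, DxM was nearest to MxD for 50.4%, which is not a like measure. The median size of the difference over all genes was 0.12 from DxM and 0.20 from both DxD and MxM.

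**Figure D1:**
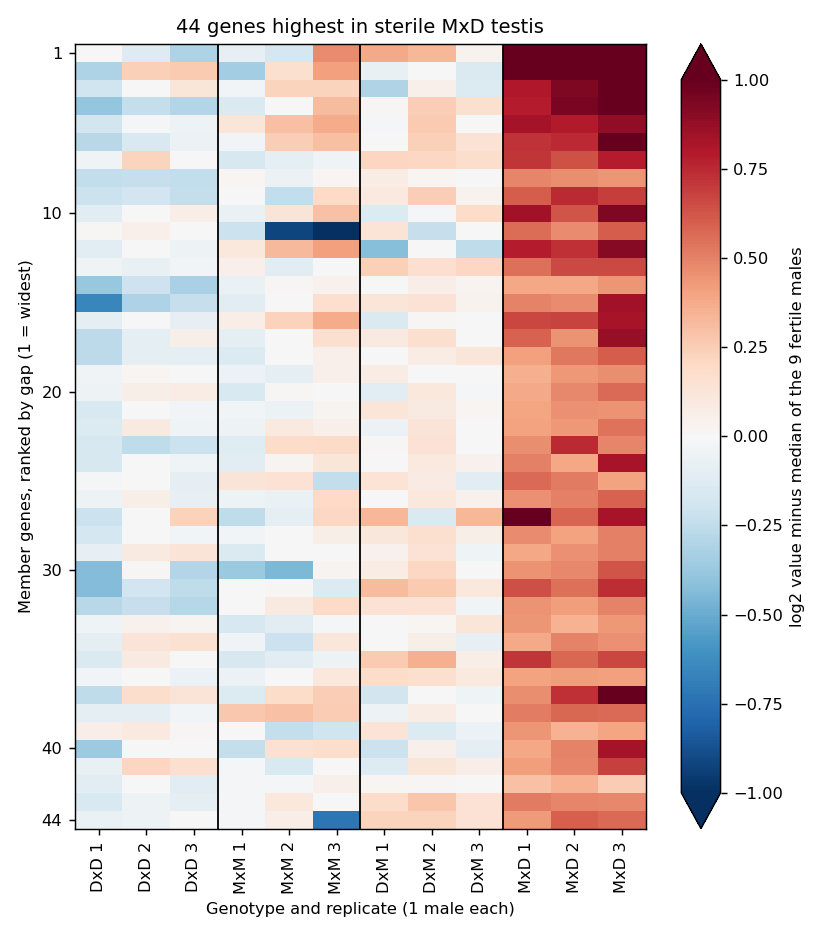
Heat map of the 44 members (rows, ranked by gap) in the 12 males (columns, grouped by genotype), where colour is a member's log2 value minus its median over the 9 fertile males and the scale ends at 1 log2 unit in both directions. The 3 MxD columns are above the fertile median for all 44 members by construction of the rule, and the fertile columns hold the only values below it.

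The widest gap belonged to ENSMUSG00000054169. Its log2 value was 6.15, 6.73 and 6.37 in the MxD males, 4.37, 4.24 and 4.06 in DxD, 4.29, 4.20 and 4.85 in MxM, and 4.75, 4.70 and 4.41 in DxM. Each sterile male was at least 1.30 above all fertile males. Among these, MxM overlapped with both DxD and DxM, while all DxD males were below all DxM males. The mean of the sterile males was 3.95-fold that of the fertile genotypes, although the gene is dim and lies in the low range of the arrays, which run from 3.08 to 13.3.

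ENSMUSG00000068457 had the next widest gap, 0.67. Its log2 value was 5.67, 6.0 and 6.31 in MxD, against 4.29, 4.83 and 4.85 in DxD, 4.24, 4.75 and 5.00 in MxM, and 4.52, 4.59 and 4.45 in DxM. The fertile genotypes overlapped completely, with means of 4.66, 4.66 and 4.52. The difference of MxD from the mean of the fertile genotypes was 2.60-fold, in a gene that is dim as well. In these genes the sterile males spread widely, with an SD of 0.29 and 0.32 (n = 3), and so did some fertile genotypes. The SD was 0.35 and 0.39 in MxM, 0.15 and 0.32 in DxD, and 0.19 and 0.07 in DxM.

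At the other end, the 3 members closest to the threshold had gaps of 0.2046, 0.2031 and 0.2026, and the 3 eligible genes just below it had 0.1998, 0.1995 and 0.1988. In the member at the edge the lowest MxD value was 10.93 and the highest fertile value 10.73, and in the first gene outside 11.19 and 10.99. With a threshold of 0.3, 15 of the 44 remained, and with 0.5, 3 remained.

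As a group, members were brighter than the 7000 deposited genes, which the authors had filtered for detection in each male. With all genes split into 4 equal classes by the mean of the 9 fertile males, 18 members were in the brightest class, 11 in the next, 9 in the one after and 6 in the dimmest. Their median fertile level was 9.0, where that of all genes was 8.12. The 3 sterile males had a range of 0.16 log2 units in the median member, and the 9 fertile males covered 0.43. These ranges are not like measures, since the second covers more males and 3 genotypes. The median SD within MxD was 0.08 for members and 0.12 for all genes, and within DxD it was 0.08 for both. It was also lower for members within MxM (0.13 against 0.15) and within DxM (0.09 against 0.11). Low spread within MxD favours passing a rule on the lowest MxD value, so these numbers describe the selection.

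Among the sterile males, replicate 3 had the highest value in 27 members, replicate 2 in 10 and replicate 1 in 7. Replicate 1 had the lowest value in 25 members. The lowest sterile male sets the gap, and without MxD replicate 1 72 genes met the rule in place of 44, without MxD replicate 2 80, and without replicate 3 51. All 44 members stayed members in each of these cases, since removing a male can only widen a gap. Across the 9 fertile males, the highest value lay in MxM replicate 3 for 17 members and in a DxM male for 21, and in a DxD male for 3.

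For each male, the median over the 44 members of its deviation from the fertile medians was 0.49, 0.50 and 0.62 in MxD. It was -0.15, 0.00 and -0.03 in DxD, -0.05, 0.00 and 0.08 in MxM, and 0.03, 0.10 and 0.01 in DxM. Other gene classes moved in the same testes. Of the 367 mitotic genes in the rows used, limma (adjusted over all 7000 genes) called 122 higher and 5 lower in MxD than in the mean of the fertile genotypes, where over all genes 11.0% were called higher and 12.8% lower. Their median deviation was 0.18, 0.15 and 0.28 in the MxD males. Of the 142 somatic genes 30 were called higher and 13 lower, of the 324 meiotic genes 8 and 44, and of the 269 postmeiotic genes 2 and 118. The postmeiotic deviation was -0.16, -0.23 and -0.28 in MxD. The somatic deviation was 0.07, 0.09 and 0.12 in MxD, below the 0.13 of fertile MxM replicate 3. The other fertile males were at -0.07 to 0.02 for the somatic class. Summed over its genes and taken back to log2, the level of the mitotic class was 16.90 to 17.00 in MxD and 16.56 to 16.74 in fertile males, and that of the somatic class was 14.71 to 14.80 and 14.47 to 14.70. The postmeiotic class summed to 18.12 to 18.19 in MxD and to 18.28 to 18.36 in fertile males, and the meiotic class to 18.56 to 18.59 and 18.58 to 18.63, which overlap. The part of these shifts in the members' difference was not tested.

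**Figure D2:**
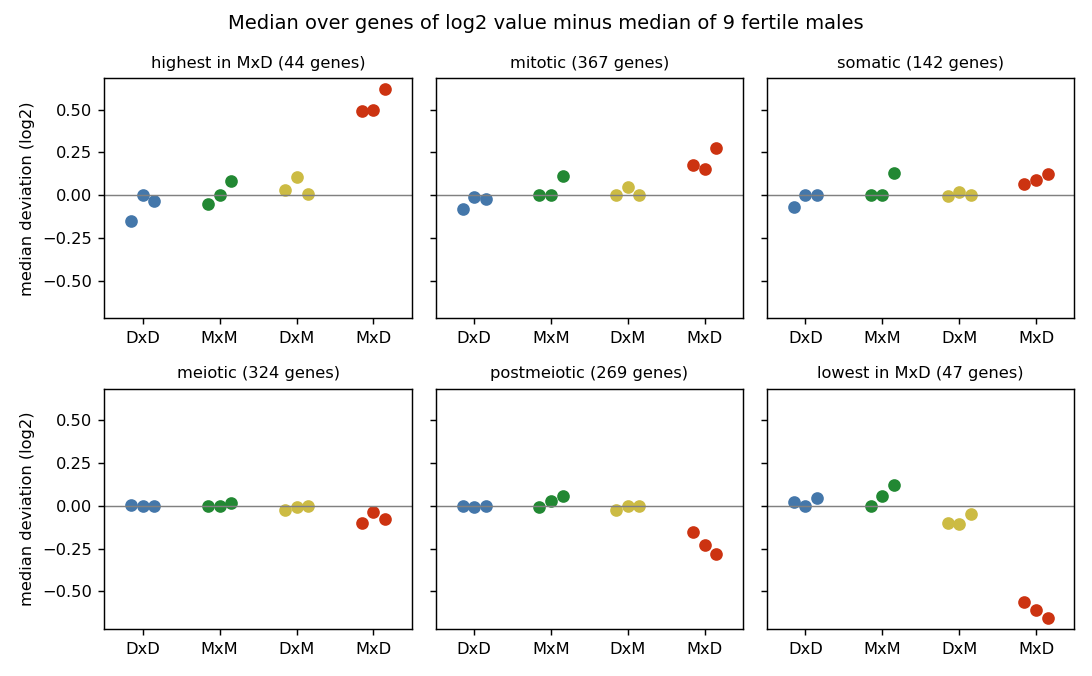
Each point is 1 male, and its height is the median over the genes of a class of log2 value minus the median of the 9 fertile males, for the members, for the 4 cell type classes of the rows used and for the genes lowest in MxD. The 44 members reached 0.49 to 0.62 in MxD males, the mitotic genes 0.15 to 0.28 and the postmeiotic genes -0.28 to -0.16.

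The X-linked genes that the study lists as over-expressed postmeiotic genes are a left-out class with which the members can be set side by side. Their median deviation was 0.59, 0.66 and 0.66 in the MxD males for 32 genes, of which 12 passed the threshold used for the members. In the MxM males, which carry the same PWK/PhJ X chromosome, it was -0.01, 0.20 and 0.27, and the members were at -0.05, 0.00 and 0.08 there. Both classes were chosen for being high in MxD, so no difference between them was tested.

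Applied to the other genotypes without leaving genes out, the rule found 198 genes highest and 190 lowest in DxD, 195 highest and 137 lowest in MxM, and 71 highest and 59 lowest in MxD. In the fertile hybrid DxM it found 2 highest and 6 lowest. With the same genes left out, 47 genes were lowest in MxD, with a median gap of 0.28, close in size to the 0.27 of the members.

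The rule put no condition on the order of the 3 fertile genotypes, and differences among them were tested, though not on values wholly apart from the rule. It limits how far any fertile value can rise, and the MxD males, whose spread was low in members, enter the estimate of the spread. Genes were tested with limma over all 7000 genes, with the 4 genotypes fitted together, and called at an adjusted p under 0.05. In a fit without the MxD males the counts of called members given next as 12, 8, 6 and 3 were 11, 8, 5 and 1, against 31%, 11.4%, 15.9% and 4.06% of all genes. These contrasts share males with one another, and 27 of the 44 members (61.4%) were called in none of the 3 pairwise contrasts among fertile genotypes, 8 in 1 and 9 in 2. Over all genes 63.3% were called in none, 16% in 1 and 17.2% in 2, shares near those of the members. The share of all genes called is given only for the main fit and the fit without the MxD males. A change in a count under another setting can therefore not be read as particular to members.

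Between the within-subspecies crosses, 12 of 44 members (27.3%) differed, against 31.9% of all genes. Of these, 11 were lower in DxD than in MxM (17.8% of all genes were) and 1 was higher (14.0% of all genes were). The median difference of members was -0.08 log2 units for DxD minus MxM, and its median size was 0.13, against 0.20 over all genes. DxD had the lower mean in 31 members (70.5%), against 53.2% of all genes. The count called fell to 5 without DxD replicate 1, to 7 without DxD replicate 2 or 3, and to 7 without MxM replicate 2 or 3. With the methods' t-test, which assumes equal variances, 8 members were at an unadjusted p under 0.05, the threshold of the methods, and 4 after Benjamini-Hochberg adjustment. Its unequal-variance form gave 5 and 1.

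The 1 member higher in DxD was ENSMUSG00000018593, at 10.6, 10.7 and 10.6 in DxD and at 10.4, 9.69 and 9.25 in MxM. The DxM males were at 10.7, 10.4 and 10.6 and the MxD males at 11.2, 11.1 and 11.2. The MxM males lay below all DxD males and reached down over more than 1 log2 unit, so that this gene, high in MxD by 1.38 over MxM, exceeded DxD by 0.53. DxD minus MxM was 0.85 (SE 0.22, limma adjusted p = 0.011). DxM minus MxM was 0.80 (SE 0.22, limma adjusted p = 0.027), which was above 0.05 without MxM replicate 2 (0.084) or 3 (0.057) and without DxM replicate 1 (0.095) or 3 (0.083). Over 18 alternatives the adjusted p ran from 8.9e-05 to 0.29 for the first difference and from 0.0004 to 0.41 for the second, the highest in each case by the unequal-variance form. Without the MxD males in the limma fit the second was at 0.054.

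The largest difference in the other direction was that of ENSMUSG00000064373. It measured 9.09, 9.44 and 9.52 in DxD, 9.64, 9.75 and 9.91 in MxM, 9.87, 9.89 and 9.79 in DxM, and 10.2, 10.2 and 10.6 in MxD. All DxD males were below all other males. DxD minus MxM was -0.42 (SE 0.13, limma adjusted p = 0.029) and DxM minus DxD was 0.50 (SE 0.13, limma adjusted p = 0.027). The first did not pass without DxD replicate 1 (adjusted p = 0.11), MxM replicate 2 (0.062) or MxM replicate 3 (0.085). The second did not pass without DxD replicate 1 (0.099) or 2 (0.060), or without any DxM male (0.060 to 0.088). Over 18 alternatives the adjusted p ran from 0.009 to 0.2 for the first and from 0.004 to 0.21 for the second.

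The fertile hybrid was above the within-subspecies crosses in a larger share of members than of all genes. DxM had a higher mean than DxD in 35 of 44 members (79.5%), against 50.6% of all genes, and a higher mean than MxM in 31 (70.5%), against 46.7%. It was above both in 26 members, the same 26 in which it was nearest to MxD, and between them in 14. Over all genes it was above both in 22.6% and between them in 52%. These shares were not tested, and they rest on the same 3 DxM males. Of the 47 genes lowest in MxD, DxM was above DxD in 8 and above MxM in 9.

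By limma, 8 members (18.2%) differed between DxM and DxD, against 12.1% of all genes. All 8 were higher in DxM, as were 5.84% of all genes, and 0 were lower, as were 6.21% of all genes. The median difference was 0.14 log2 units, where over all genes it was 0.00. Without DxD replicate 1 or 2, or without DxM replicate 1, the count was 5, and without DxM replicate 2 it was 4. It was 10 without MxM replicate 3, 11 with the replicate number as a block and 16 with array weights. Leaving out all replicate 1 males, a setting chosen after seeing the data, left 0 called by limma, with 13 at an unadjusted p under 0.05. The methods' t-test gave 16 members unadjusted and 8 adjusted, and its unequal-variance form 14 and 1.

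Between DxM and MxM, 6 members differed (13.6%, against 16.9% of all genes), 4 of them higher in DxM (6.51% of all genes) and 2 lower (10.4% of all genes). The count was 1 without DxM replicate 1 and 3 without DxM replicate 2 or 3 or without MxM replicate 2. With the replicate number as a block it was 10. The methods' t-test gave 7 members unadjusted and 1 adjusted, and its unequal-variance form 7 and 0. Against the mean of DxD and MxM, 3 members differed (6.82%, against 4.64% of all genes), 3 of them higher in DxM (1.57% of all genes) and 0 lower (3.07% of all genes), with 16 members at an unadjusted limma p under 0.05. That count was 0 by limma without DxM replicate 1, with 11 at an unadjusted p under 0.05, 1 without DxM replicate 2 or any DxD male, 5 without MxM replicate 1, 6 without MxM replicate 3, 5 with array weights, 8 with the replicate number as a block and 1 without the MxD males.

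**Figure D3:**
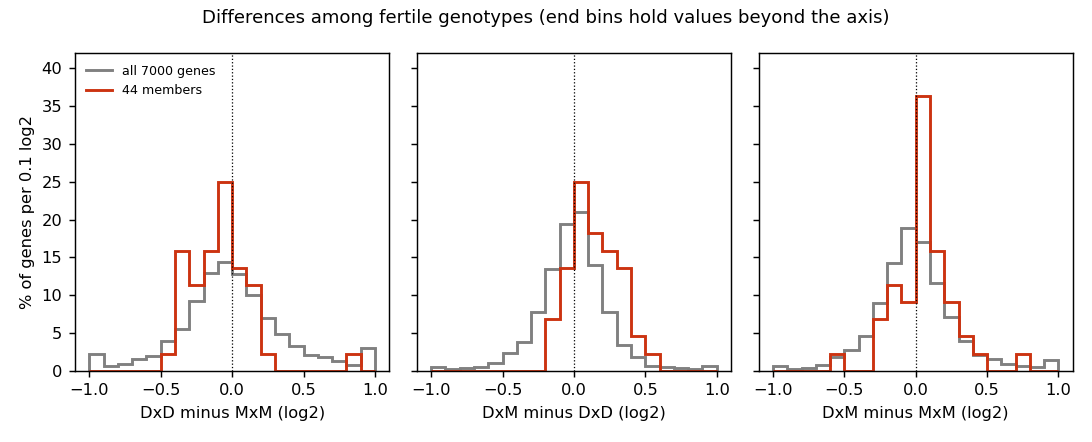
Histograms of log2 differences between pairs of fertile genotypes in bins of 0.1, as the percentage of the 44 members (red) and of all 7000 genes (grey), with values beyond the axis in the end bins. For DxM minus DxD, 35 of 44 members lie above 0, and for DxD minus MxM 31 lie below 0.

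ENSMUSG00000021939 showed the fertile hybrid between the within-subspecies crosses and the sterile hybrid. Its values were 8.06, 8.30 and 8.24 in DxD, 8.49, 8.5 and 8.36 in MxM, 8.81, 8.76 and 8.6 in DxM, and 9.14, 9.04 and 9.23 in MxD. No 2 of the 4 genotypes overlapped. DxM minus DxD was 0.52 (SE 0.09, limma adjusted p = 0.0031), and DxM was above the mean of DxD and MxM by 0.40 (SE 0.08, limma adjusted p = 0.013). The second of these did not pass without DxM replicate 1 (adjusted p = 0.082) or 2 (0.070). Over the alternatives the adjusted p ran from 0.00043 to 0.081 for the first, which was at 0.061 without all replicate 1 males, and from 0.012 to 0.12 for the second.

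The 2 members lower in DxM than in MxM placed the fertile hybrid with DxD. ENSMUSG00000039735, the member on chromosome 3, measured 7.37, 7.79 and 7.54 in DxM and 7.69, 7.80 and 7.74 in DxD, which overlapped, and 7.90, 8.12 and 8.20 in MxM, above both. In MxD it was 8.58, 8.53 and 8.70. DxM minus MxM was -0.51 (SE 0.11, limma adjusted p = 0.0097). ENSMUSG00000015214 was separated in the same way, at 6.48, 6.60 and 6.53 in DxM, 6.44, 6.44 and 6.51 in DxD, 6.80, 6.83 and 6.79 in MxM, and 7.04, 7.11 and 7.10 in MxD. DxM minus MxM was -0.27 (SE 0.06, limma adjusted p = 0.010, and 0.050 without DxM replicate 1). Over the alternatives the adjusted p ran from 0.0034 to 0.24 for ENSMUSG00000039735 and from 0.0038 to 0.17 for ENSMUSG00000015214.

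**Figure D4:**
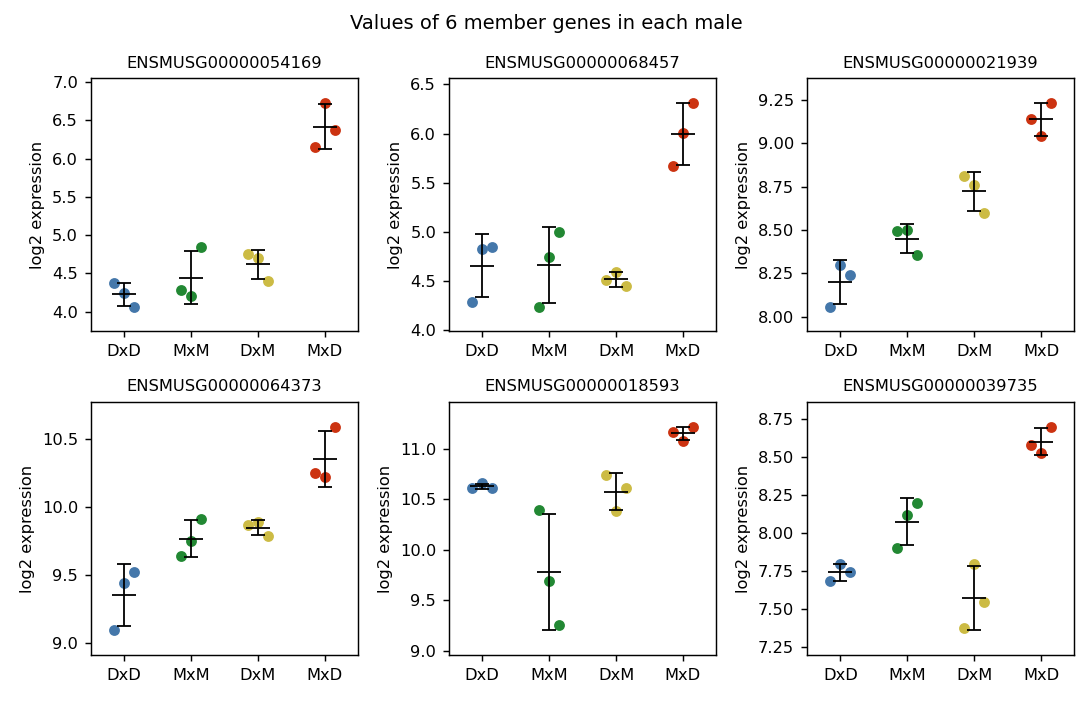
Log2 expression of 6 members in each male, with 1 point per male and the mean and SD (n = 3) of each genotype as black bars. The axes differ between panels and do not start at 0, and the MxD males are the highest in each panel, from a gap of 1.30 in ENSMUSG00000054169 to 0.23 in ENSMUSG00000021939.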

How the data were processed

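Expression was measured in testis of 12 males (3 per genotype). According to the methods, the authors grouped probes per Ensembl gene with BRAINARRAY chip description files , summarised them with PLIER, filtered for detection in each male and then applied quantile normalization. The deposited log2 values of 7000 genes were used unchanged. Sorting any array gives the same list of values. There is no read depth for arrays, so the precision is limited by how many there are.

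Members were selected with the rule given above. The members, tests and lists were chosen with earlier results of these data known. Of 256 genes on 15 marker and pathway lists, 1 could be matched to an ID, so the lists, X-linked members and promoter motifs were not analysed, and the cell type classes of the supplementary table, for its first 1997 rows, were used in their place.

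Fertile genotypes were compared with limma 3.58.1 in R 4.3.3 (two-sided, 1 coefficient per genotype, Benjamini-Hochberg adjustment over all genes at 5%). The limma p-values weigh a difference of genotype means against the spread between males within genotypes. In the main fit the males count as independent. The alternatives were other thresholds, the methods' t-test (equal variances) and its unequal-variance form, array weights, and a trend and robust prior. Further ones were centring on the autosomal genes of known chromosome, removal of the dimmest 25% of genes and fits without MxD. Each male was also left out of the rule, and each fertile male of the limma fits. Single MxD males were not left out of the fits. The replicate number was fitted as a block. Same-numbered males deviated together (correlation above 0.1 for all 3 numbers) between DxM and DxD and between MxD and each other genotype, but the lowest correlation was 0.07 between DxD and MxM and -0.05 between DxM and MxM.

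Genes named by ID are the 2 members with the widest gap and up to 2 called members with the largest difference each way per contrast, and only part of the latter are given. On simulated data with 7000 genes, limma recovered 56% of changes of 0.5 log2 units and 92% of changes of 1 between DxM and DxD (100 genes each), with 8 false calls in all. The simulated males had independent noise, without the deviations shared by same-numbered males, and only these genes changed. The recovery in the real data can therefore differ. Figures were drawn with matplotlib 3.10.9.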

Additional observations from a re-analysis of the deposited data

How the results depend on the processing

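The 44 members became 100 with a threshold of 0.1, 15 with 0.3 and 3 with 0.5, 71 with the left-out genes kept in, and 83 without all replicate 1 males, a setting chosen after seeing the data. Arrays were also centred on the median of the autosomal genes with a chromosome in the supplementary rows used, mostly chromosomes 1 to 4 and part of 5. That gave 36 members, of which 35 were among the 44. Without the dimmest 25% of genes there were 38. Leaving out 1 male gave 44 to 80 members. With 1 fertile male left out, called members numbered 5 to 13 for DxD against MxM and 4 to 10 for DxM against DxD. They numbered 1 to 5 for DxM against MxM and 0 to 6 for DxM against the mean of DxD and MxM. After adjustment the methods' t-test called 4, 8 and 1 in the first 3 of these contrasts, and its unequal-variance form 1, 1 and 0. At an unadjusted p under 0.05 limma gave 14, 16, 12 and 16, in the order above. Array weights gave 8, 16, 4 and 5 members. A fit without the MxD males gave 1 in the last contrast. Without all replicate 1 males limma called 0 for DxM against DxD, 2 for DxM against MxM and 0 against the mean, with 13, 10 and 8 at an unadjusted p under 0.05. Fitting the replicate number as a block gave counts of 14, 11, 10 and 8 members, and the pairing changed no call among members already called. The 11 differences tested in genes chosen by the naming rule kept their direction under all alternatives run, and each was past the threshold in only part of them. Without the share of all genes called under each setting, the changes in counts cannot be read as particular to members. The causes of these changes were not tested. The alternatives for X-linked members were not run, since no member's position on the X chromosome was analysed.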
